A study of Mus musculus with 24 samples.

Results

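The lipins are the 3 genes Lpin1, Lpin2 and Lpin3 of the mouse, found by symbol among the 23240 rows of the deposited read-count table, with 1 row each. They were chosen with results of these data in view, because Lpin1 RNA was higher in all 18 libraries of livers given extracellular vesicles (EVs) than in the typical PBS liver. The differences from PBS are therefore given as a description, with no test. Tests are given between EV groups, across libraries within a group, and for other genes.

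RNA was sequenced from the livers of female NSG (NOD scid gamma) mice, an immunodeficient strain without mature lymphocytes, 8 weeks old per the labels. Tail-vein injections were given to every mouse 2 times each week over 5 weeks, and livers were taken 2 days after the last injection. The 4 groups, with 6 libraries each, received phosphate-buffered saline (PBS) or about 10 µg per injection of EVs, membrane particles that cells release. The EVs are labelled MCF10A EV, MDA-MB-231 EV and MCF10A/miR-122 EV. MCF10A is a human breast epithelial line that does not form tumors, miR-122 is a microRNA abundant in liver, and MDA-MB-231 is a human breast cancer line. How miR-122 was brought into the MCF10A cells is not given in the sources used here.

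Lipins are phosphatidate phosphatases. They remove the phosphate from phosphatidate to give diacylglycerol, the branch point from which cells make triacylglycerol for storage and secretion, and phosphatidylcholine and phosphatidylethanolamine for membranes. Lipin 1 also acts in the nucleus, where it has been reported to co-activate PPARα with PGC-1α on fatty acid oxidation genes. In liver, Lpin1 is known as a gene induced by fasting and glucocorticoids, and Lpin2 as an abundant lipin of hepatocytes.

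A start site of each gene is shown because mean Lpin1 and Lpin2 RNA were highest, and mean Lpin3 RNA lowest, in the same 2 EV groups. RefSeq lists 1 start for Lpin1, 3 for Lpin2 and 2 for Lpin3, and the windows printed are that of Lpin1 and the 5′-most of the others. Each runs 5′ to 3′ from 250 bases before to 50 bases after a transcript start in RefSeq (GRCm38.p6). Capitals mark 3 short motifs searched on both strands, none of which overlapped another: the E-box CACGTG, the nuclear receptor core motif AGGTCA, and the glucocorticoid receptor core motif AGAACA, which on the opposite strand is spelled TGTTCT.
Lpin1, minus strand, chr12:16610917-16611216: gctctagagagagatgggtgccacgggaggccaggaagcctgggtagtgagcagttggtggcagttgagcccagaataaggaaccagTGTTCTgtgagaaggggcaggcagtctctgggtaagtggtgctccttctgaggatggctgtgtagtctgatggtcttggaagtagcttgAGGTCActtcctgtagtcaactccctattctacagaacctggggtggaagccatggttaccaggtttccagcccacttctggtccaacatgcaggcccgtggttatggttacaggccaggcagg
Lpin2, plus strand, chr17:71183282-71183581: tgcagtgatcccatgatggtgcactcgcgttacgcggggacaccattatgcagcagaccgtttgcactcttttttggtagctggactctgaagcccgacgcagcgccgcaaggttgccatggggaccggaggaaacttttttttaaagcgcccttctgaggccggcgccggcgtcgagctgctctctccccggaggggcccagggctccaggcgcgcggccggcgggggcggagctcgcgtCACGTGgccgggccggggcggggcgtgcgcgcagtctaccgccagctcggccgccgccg
Lpin3, plus strand, chr2:160880420-160880719: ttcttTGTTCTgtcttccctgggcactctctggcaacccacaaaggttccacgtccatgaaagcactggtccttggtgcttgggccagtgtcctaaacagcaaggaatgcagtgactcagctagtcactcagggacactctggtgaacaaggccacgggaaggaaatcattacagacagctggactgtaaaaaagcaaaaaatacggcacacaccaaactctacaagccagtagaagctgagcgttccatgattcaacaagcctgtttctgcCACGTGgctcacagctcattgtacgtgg
The only Lpin1 window listed does not lie at the gene's 5′-most start. The Lpin1 window held AGGTCA at base -74 and TGTTCT at base -163, counted from the start, and no E-box. That of Lpin2 held 1 E-box at base -9 and neither receptor motif in this window, with 37 CG pairs and a G+C content of 68.7%, against 2 CG pairs and 55.3% for Lpin1. Lpin3 held TGTTCT at base -245 and an E-box at base 23. Of the windows not printed, the Lpin2 window chr17:71204404-71204703 held TGTTCT at base -203, and the other Lpin2 window and the other Lpin3 window held none of these motifs. Among all 32851 promoter windows of this length, 7.15% held the E-box, 16.3% AGGTCA and 19.0% AGAACA, so matches to each are common. A match is a description of the letters and shows no binding.

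The table gave 21.3 to 33.7 M (mega) counts per library, and 13773 genes were tested. Hepatocyte markers were abundant in every library, at a sum of 123556 to 169483 CPM (read counts scaled to the library's size). The libraries fell into 2 sets of 12 with no group in both. The serine protease inhibitor gene Serpina3a was at 110 to 325 CPM in the PBS and MCF10A EV libraries and at 0.285 to 5.85 CPM in those labelled MDA-MB-231 EV or MCF10A/miR-122 EV. In comparisons across these sets, treatment and set cannot be told apart. MCF10A EV against PBS, and MDA-MB-231 EV against MCF10A/miR-122 EV, lie within a set. The library names of the MDA-MB-231 EV and MCF10A/miR-122 EV groups contradict their labels, each reading like the other group, and the labels are followed here. Libraries are called livers below, although the labels do not say that each came from a separate mouse. Fewer cells of a type and less RNA per cell cannot be told apart in whole liver.

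Lpin1, the lipin with the widest range, was low in 4 of 6 PBS livers and high in nearly all EV livers. In PBS replicates 1 to 6 it was at 48.1, 63.4, 48.4, 50.1, 130 and 281 CPM. Replicate 6 stood far above the other 5, and replicate 5 above the first 4. With MCF10A EVs Lpin1 was at 276, 364, 323, 259, 87.4 and 421 CPM, where replicate 5 lay below 2 of the PBS livers. With MCF10A/miR-122 EVs the 6 livers were at 753, 409, 653, 225, 367 and 587 CPM. With MDA-MB-231 EVs they were at 504, 341, 285, 466, 331 and 469 CPM. All 18 EV libraries lay above the PBS median of 56.7 CPM, and 14 of 18 lay above every PBS library. The MDA-MB-231 EV group did not overlap PBS, but by a narrow margin, with 285 CPM against 281 CPM in PBS replicate 6. The other EV groups overlapped PBS, MCF10A/miR-122 EV only through its replicate 4 at 225 CPM.

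**Figure D1:**
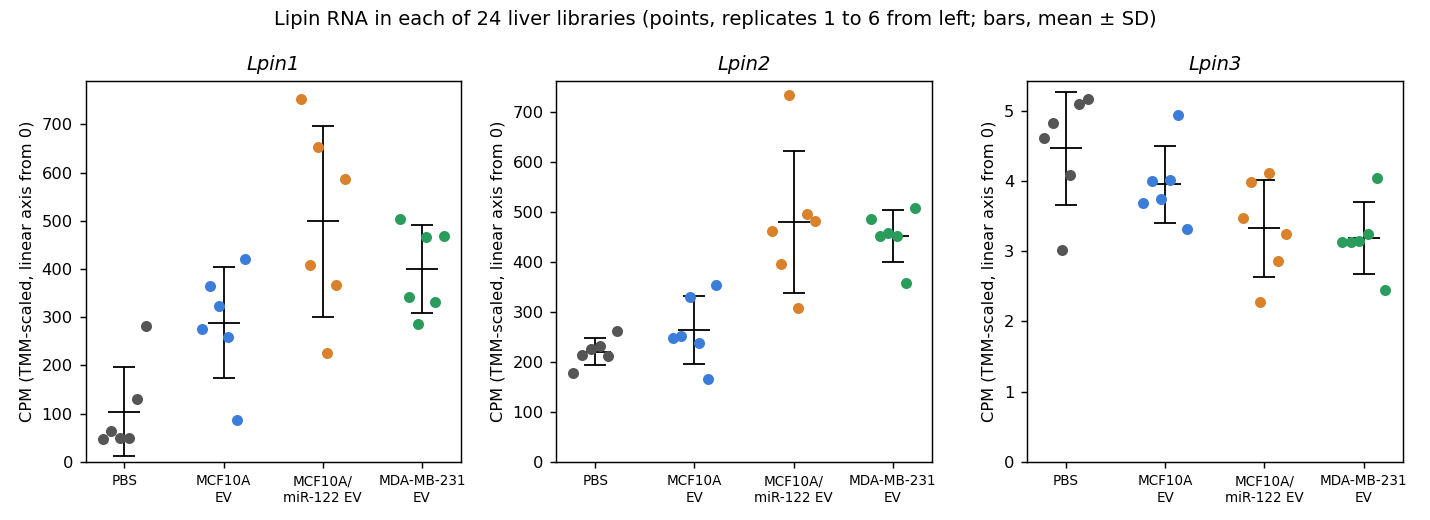
Lpin1, Lpin2 and Lpin3 RNA in CPM (linear axes from 0) in the 24 libraries by group, each point 1 library and bars the mean ± SD of 6. PBS replicate 6 (281 CPM of Lpin1) and MCF10A EV replicate 5 (87.4 CPM) bridge the gap between PBS and EV livers in Lpin1, and Lpin3 lies at 2.28 to 5.17 CPM.

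Mean Lpin1 was 103 ± 92.5 CPM with PBS, 288 ± 115 with MCF10A EVs, 499 ± 198 with MCF10A/miR-122 EVs and 399 ± 91.3 with MDA-MB-231 EVs (SD, n = 6 each). The fitted log2 difference from PBS was 1.48 (SE 0.40) for MCF10A EVs, 2.27 (SE 0.41) for MCF10A/miR-122 EVs and 1.95 (SE 0.41) for MDA-MB-231 EVs. These correspond to 2.79, 4.82 and 3.86 times the PBS level. PBS replicate 6, the PBS liver highest in Lpin1, made these differences smaller. Without PBS replicate 6 the same log2 differences were 2.08, 2.88 and 2.55. The first of them lies within a set of libraries and the other two cross the sets.

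Lpin2 was even among PBS livers and higher in the MDA-MB-231 EV and MCF10A/miR-122 EV groups. PBS replicates 1 to 6 were at 178, 213, 225, 232, 211 and 261 CPM. With MCF10A EVs Lpin2 was at 247, 252, 329, 238, 165 and 354 CPM, which spans the whole PBS range. Replicate 5, the liver with the least Lpin1 of all EV livers, was also the only EV liver below every PBS liver in Lpin2. With MCF10A/miR-122 EVs Lpin2 was at 462, 396, 733, 307, 496 and 481 CPM. With MDA-MB-231 EVs it was at 486, 452, 457, 451, 357 and 508 CPM. Neither of these 2 groups overlapped PBS, and replicate 3 of the first stood highest.

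Mean Lpin2 was 220 ± 27.5 CPM with PBS, 264 ± 68.4 with MCF10A EVs, 479 ± 142 with MCF10A/miR-122 EVs and 452 ± 51.6 with MDA-MB-231 EVs (SD, n = 6 each). The log2 differences from PBS were 0.26, 1.12 and 1.04 (SE 0.17 each). The interval of the first, -0.08 to 0.61 at 95%, spans 0.

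Lpin3 was scarce, with 69 to 145 counts per library, and was lowest in the groups where Lpin2 was highest. PBS livers were at 4.61, 4.82, 3.02, 4.08, 5.09 and 5.17 CPM. With MCF10A EVs Lpin3 was at 3.69, 4, 3.74, 4.02, 4.94 and 3.32 CPM, inside the PBS range. With MCF10A/miR-122 EVs it was at 3.47, 3.99, 2.28, 4.11, 2.86 and 3.24 CPM, and with MDA-MB-231 EVs at 3.13, 3.13, 3.15, 3.24, 4.04 and 2.44 CPM. All 4 groups overlapped. Mean Lpin3 was 4.46 ± 0.809, 3.95 ± 0.546, 3.33 ± 0.69 and 3.19 ± 0.51 CPM in the same order of groups (SD, n = 6 each). The log2 differences from PBS were -0.17, -0.42 and -0.48 (SE 0.15 each).

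Between EV groups, which the choice of the genes did not use, only Lpin2 passed the test. Lpin2 was higher with MCF10A/miR-122 EVs than with MCF10A EVs by a log2 difference of 0.86 (95% interval 0.51 to 1.21, edgeR adjusted p = 0.00104 over all genes tested). All 6 libraries lay above the MCF10A EV median, although the groups overlapped at 307 CPM against 354 CPM. Lpin2 was also higher with MDA-MB-231 EVs than with MCF10A EVs, by 0.77 (0.43 to 1.12, edgeR adjusted p = 0.00508). The MDA-MB-231 EV and MCF10A EV groups did not overlap, but by a narrow margin, 357 CPM against 354 CPM. Of all genes tested, 16.2% were called in the first of these comparisons and 7.68% in the second, in either direction. Both comparisons cross the library sets. Both calls held without any 1 library.

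Lpin1 did not pass in these comparisons. Its log2 difference was 0.79 for MCF10A/miR-122 EVs against MCF10A EVs (95% interval -0.03 to 1.61, edgeR adjusted p = 0.183) and 0.47 for MDA-MB-231 EVs against MCF10A EVs (-0.34 to 1.28, edgeR adjusted p = 0.525). Both intervals reach beyond the differences called for Lpin2. Lpin3 had -0.25 (edgeR adjusted p = 0.271) and -0.31 (edgeR adjusted p = 0.22).

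MDA-MB-231 EVs against MCF10A/miR-122 EVs, within a library set, gave no lipin call. The log2 differences were -0.32 for Lpin1 (95% interval -1.13 to 0.49, edgeR adjusted p = 0.919), -0.08 for Lpin2 (-0.43 to 0.26, 0.954) and -0.06 for Lpin3 (-0.37 to 0.25, 0.967). In this comparison 0.254% of all genes tested were called. The order of mean Lpin1 and Lpin2 levels over the 4 groups was the same, from PBS through MCF10A EV and MDA-MB-231 EV to MCF10A/miR-122 EV. Neighbours in that order among EV groups were separated by the test only for Lpin2, between MCF10A EV and MDA-MB-231 EV.

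Because levels of different genes can be compared only per length, CPM was divided by the kilobases (kb) of exon of each gene, 6.19 for Lpin1, 6.26 for Lpin2 and 3.62 for Lpin3. PBS livers held mostly Lpin2, and EV livers similar amounts of Lpin1 and Lpin2. Lpin1 was at 0.453 ± 0.345 of the Lpin2 level per kb with PBS (SD, n = 6). The ratio was 1.07 ± 0.304 with MCF10A EVs, 1.05 ± 0.346 with MCF10A/miR-122 EVs and 0.893 ± 0.166 with MDA-MB-231 EVs. It exceeded 1 in 1 of 6 PBS livers, replicate 6, and in 4, 3 and 2 of 6 livers of the EV groups. Without that PBS liver the PBS mean was 0.327.

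**Figure D2:**
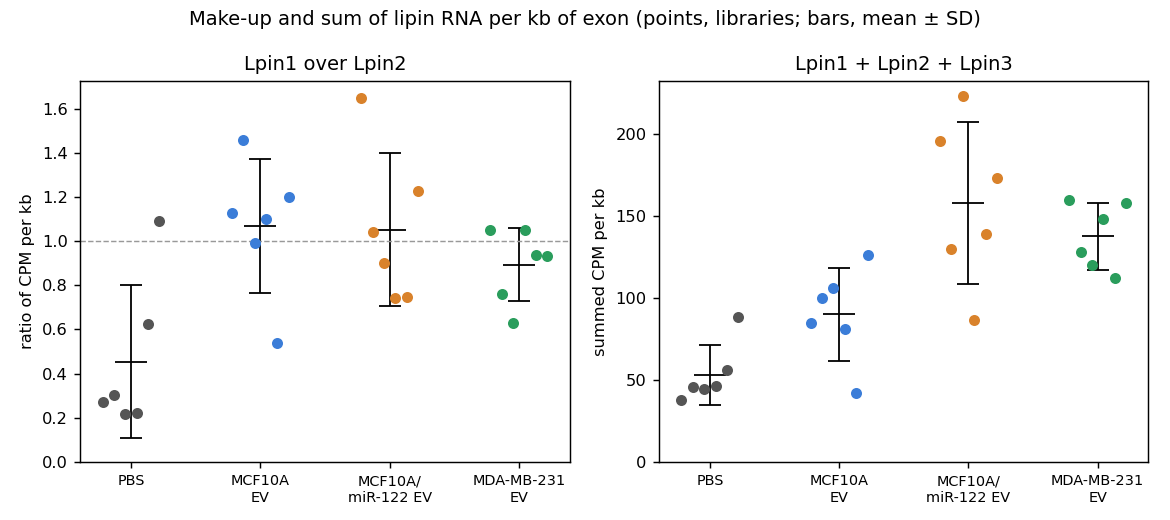
Left, the ratio of Lpin1 to Lpin2 in CPM per kb of exon, with a dashed line at 1; right, the summed CPM per kb of the 3 lipins, each point 1 library and bars the mean ± SD of 6. The ratio averages 0.453 in PBS and 0.893 to 1.07 in EV groups, and the sum is highest in the MDA-MB-231 EV and MCF10A/miR-122 EV groups (138 and 158).

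As shares of lipin RNA per kb, Lpin1 made up 27.8% ± 13.7 with PBS and 46.5% to 50% in the EV groups, and Lpin2 69.7% ± 13.3 with PBS and 48.5% to 52.8% in the EV groups (SD, n = 6). Lpin3 made up 2.46% ± 0.656 with PBS and 0.662% to 1.44% in the EV groups. The summed level of the family was 53.1 ± 18.4 CPM per kb with PBS, 89.9 ± 28.5 with MCF10A EVs, 158 ± 49.3 with MCF10A/miR-122 EVs and 138 ± 20.5 with MDA-MB-231 EVs. The Lpin1 share was thus alike in the 3 EV groups, while the mean sum was lowest with MCF10A EVs among them. No other annotated gene overlaps a lipin exon in GENCODE M21, and at most 0.502% of the 32-base stretches of a lipin transcript occur in another gene.

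The spread of the lipins within groups was then compared, on log2 CPM with each group's mean removed and within each library set (12 libraries, 12 relations, permutation within groups, Benjamini-Hochberg adjustment). In MDA-MB-231 EV and MCF10A/miR-122 EV livers, those with more Lpin2 had less Lpin3. Pearson's r was -0.916 (permutation adjusted p = 0.00024) and Spearman's rho -0.965 (permutation adjusted p = 0.00012, the smallest that 100000 permutations and this adjustment can give). Without the 2 libraries farthest from the median of Lpin2, r was -0.92 (permutation adjusted p = 0.00576). The livers at the ends were MCF10A/miR-122 EV replicate 3, with 733 CPM of Lpin2 and 2.28 of Lpin3, and replicate 4, with 307 and 4.11. In the PBS and MCF10A EV livers r was -0.47 and rho -0.503 (permutation adjusted p = 0.14 and 0.196), which did not pass. Whether the 2 sets differ in this relation was not tested.

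Lpin1 and Lpin2 varied together in PBS and MCF10A EV livers, but the relation rested on few of them. Pearson's r was 0.701 (permutation adjusted p = 0.0223) and rho 0.608 (permutation adjusted p = 0.112). Without the 2 libraries farthest from the median r was 0.286 (permutation adjusted p = 0.409). It also missed the threshold without MCF10A EV replicate 5 (r 0.496, permutation adjusted p = 0.178), MCF10A EV replicate 6 (0.688, 0.0675) or PBS replicate 6 (0.711, 0.064). In the other 12 livers r was 0.687 and rho 0.462 (permutation adjusted p = 0.108 and 0.279).

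Lpin1 was also set beside Ppargc1a, which encodes the coactivator PGC-1α. In MDA-MB-231 EV and MCF10A/miR-122 EV livers, r was 0.845 (permutation adjusted p = 0.00786) and rho 0.839 (permutation adjusted p = 0.0207). Without the 2 libraries farthest from the median, with 10 left, r was 0.701 (permutation adjusted p = 0.124) and no longer passed. With 1 library left out in turn, r was 0.748 to 0.944. MCF10A/miR-122 EV replicate 1 had the highest level of both genes, 753 CPM of Lpin1 and 35.5 CPM of Ppargc1a, and replicate 4 the lowest of both in these 2 groups, 225 and 9.83 CPM. In PBS and MCF10A EV livers r was 0.525 and rho 0.406 (permutation adjusted p = 0.108 and 0.279). PBS replicate 6, the PBS liver with high Lpin1, had 7.70 CPM of Ppargc1a, within the 7.45 to 8.62 CPM of PBS replicates 1 to 4.

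With Tsc22d3, the glucocorticoid-induced gene GILZ, Lpin1 had r 0.67 and rho 0.608 in MDA-MB-231 EV and MCF10A/miR-122 EV livers (permutation adjusted p = 0.0399 and 0.112). The call was lost without the 2 farthest libraries (r 0.503, permutation adjusted p = 0.344). It was also lost when any 1 of 10 of the 12 libraries was left out, all but MCF10A/miR-122 EV replicate 3 and MDA-MB-231 EV replicate 5, with r of 0.56 to 0.683 in those fits. In PBS and MCF10A EV livers r was 0.533 and rho 0.566 (permutation adjusted p = 0.188 and 0.196). Neither Dbp, a clock output gene, in either set nor Lpin3 in either set gave a relation with Lpin1 that passed (permutation adjusted p of r 0.219 to 0.772).

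**Figure D3:**
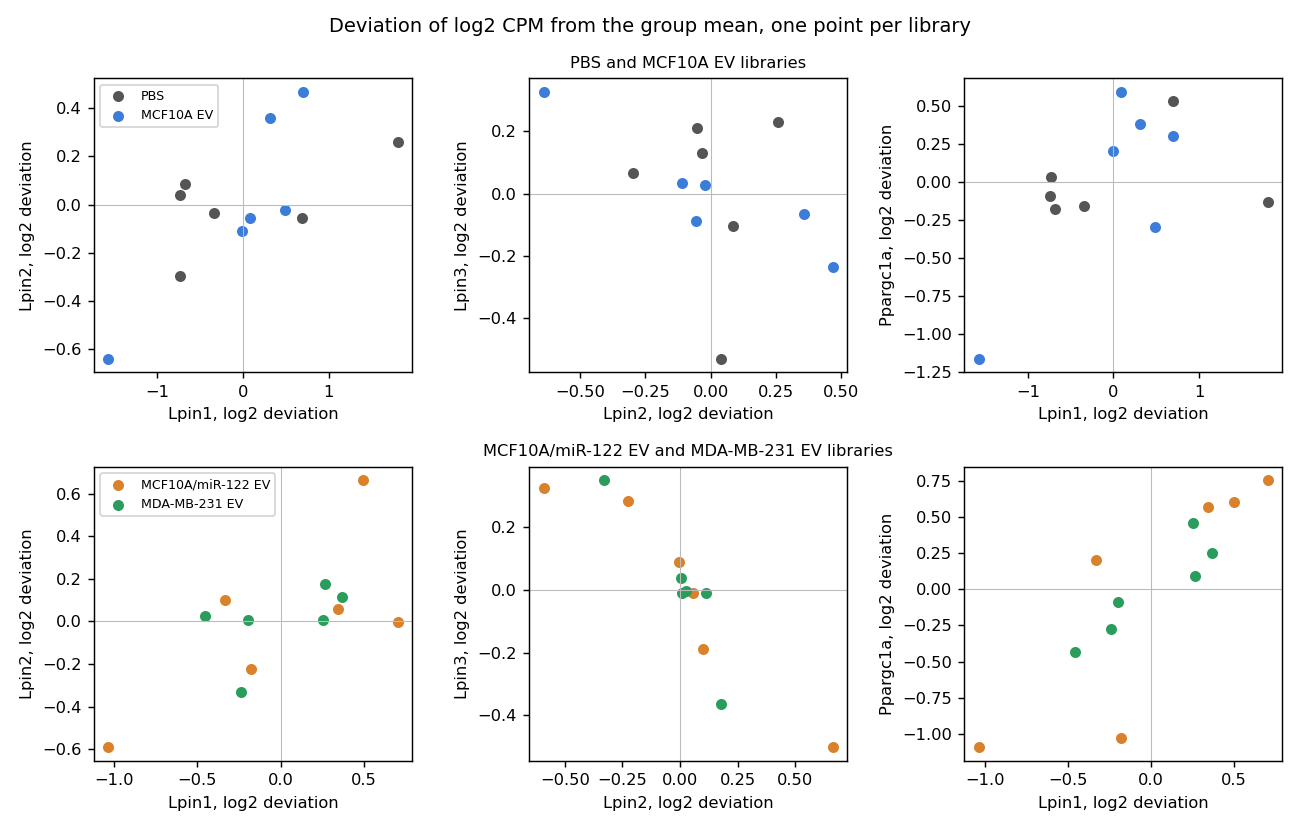
Deviation of log2 CPM from the group mean, 1 point per library, for Lpin1 and Lpin2 (left), Lpin2 and Lpin3 (middle) and Lpin1 and Ppargc1a (right), in PBS and MCF10A EV libraries (top) and in MDA-MB-231 EV and MCF10A/miR-122 EV libraries (bottom). Lpin2 and Lpin3 fall along a descending line in the lower middle panel (r -0.916), and a single MCF10A EV library, replicate 5, lies at the lower left of the upper left panel.

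The genes most like each lipin over all 24 libraries were found by Pearson's r of log2 CPM among 11117 genes whose average log2 CPM reached 1. They were chosen for likeness, all points share the group differences, and no test is given. For Lpin1 they were Ell2, an elongation factor of RNA polymerase II (r 0.924), D4Bwg0951e (0.916), 3110043O21Rik (0.909), AA986860 (0.904), Arhgef26, a guanine nucleotide exchange factor (0.899), and Cebpd, which encodes the transcription factor C/EBPδ (0.895). Ell2 was at 53.3 ± 11 CPM with PBS and at 72.2 ± 17, 97.9 ± 27 and 82.4 ± 7.53 CPM in the groups given EVs of MCF10A, MCF10A/miR-122 and MDA-MB-231 (SD, n = 6 each), the same order as Lpin1. With each group's mean removed, r of Ell2 with Lpin1 was 0.848 in PBS and MCF10A EV livers and 0.97 in the other 12. These deviations are part of the values that chose Ell2, so they add no support. In the other 12 livers D4Bwg0951e had 0.552, 3110043O21Rik 0.725, AA986860 0.898, Arhgef26 0.864 and Cebpd 0.474. Lpin2 ranked 47 in likeness to Lpin1 (r 0.817).

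For Lpin2 the nearest were Herpud1, a gene of the endoplasmic reticulum stress response (r 0.945), N4bp2l1 (0.941) and Ptp4a1, a protein tyrosine phosphatase (0.926). Herpud1 was at 244 ± 30 CPM with PBS, 322 ± 96.8 with MCF10A EVs, 569 ± 63.9 with MCF10A/miR-122 EVs and 526 ± 73.2 with MDA-MB-231 EVs (SD, n = 6 each), the same order of groups as Lpin2. Lpin3 was most like Fam73b (0.877), Tmem18 (0.848) and Stx6, a syntaxin of vesicle fusion (0.843), and ranked far from both other lipins (r -0.531 with Lpin1 and -0.816 with Lpin2).

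Other genes were read as 12 lists of 111 genes, of which 103 were tested. Lipid enzymes by role made up 7 lists, and the others held enzymes acting on lipins, regulators of lipin transcription, fatty acid oxidation genes, glucocorticoid and fasting responsive genes, and clock genes. With MCF10A EVs against PBS, 3 members were called higher and 3 lower, where 0.37% of all genes were called higher and 0.697% lower (1.07% in all). None of them was among the 39 lipid enzymes tested, where edgeR had 2 higher and 7 lower at an unadjusted p below 0.05 (23.1%, beside 17.3% of all genes) and DESeq2 called 1 higher and 1 lower. This count depended on single libraries, with 3 members in all without PBS replicate 3 or 4 and 20 without PBS replicate 5. With MCF10A/miR-122 EVs against PBS, 24 were higher and 10 lower, beside 8.35% and 9.53% of all genes (17.9% in all). The lipid enzymes among them were 6 higher and 5 lower (28.2% of 39). With MDA-MB-231 EVs against PBS, 10 were higher and 8 lower, beside 5.33% and 6.34% of all genes (11.7% in all), and 1 higher and 3 lower of the lipid enzymes (10.3%). Against MCF10A EVs, 25 were higher and 13 lower with MCF10A/miR-122 EVs, beside 7.53% and 8.71% of all genes. There were 13 higher and 9 lower with MDA-MB-231 EVs, beside 3.24% and 4.44% of all genes. MDA-MB-231 EVs against MCF10A/miR-122 EVs gave 1 lower member and none higher, beside 0.211% and 0.0436% of all genes. Genes named with values were picked from the rule's genes after these were seen, and unless stated their calls held without any 1 library. With identities taken from the library names, 24 of the 90 calls of the rule's genes were lost and 6 reversed. The calls lost include Dgat2 (0.19, edgeR adjusted p = 0.0926), Dgat1 (0.07, 0.592), Etnk2 (0.44, 0.0554) and Foxo1 (0.5, 0.131) with MCF10A/miR-122 EVs and Dgke (-0.44, 0.0545) with MDA-MB-231 EVs against PBS. They also include Gpd1l (0.27, 0.0522) and Srebf1 (0.3, 0.325) with MCF10A/miR-122 EVs against MCF10A EVs. Values after a gene are log2 differences, and adjusted p-values are edgeR's over all genes tested. The median difference of all genes lay between -0.004 and 0.008 in every comparison.

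Upstream of the lipins, the enzymes that make phosphatidate did not move as a group. Of 4 glycerol 3-phosphate acyltransferases, 1 was higher and 2 were lower with MCF10A/miR-122 EVs than with PBS (75%, beside 17.9% of all genes, list median -0.31). None was called with the other EVs against PBS. Gpam, a mitochondrial member, was at 89.9 ± 16.3 CPM with PBS and at 67.9 ± 18, 90.7 ± 34.5 and 90 ± 32.1 CPM in the groups given EVs of MCF10A, MCF10A/miR-122 and MDA-MB-231 (SD, n = 6 each), and passed no test (edgeR adjusted p = 0.274 to 0.997). Of 6 lysophosphatidate acyltransferases edgeR called none against PBS, with 1 to 2 at an unadjusted p below 0.05 in each comparison and 1 called by DESeq2, lower with MDA-MB-231 EVs. Agpat2, the lysophosphatidate acyltransferase whose loss causes lipodystrophy, was lower with MCF10A/miR-122 EVs (-0.50, edgeR adjusted p = 0.00513) and MDA-MB-231 EVs (-0.59, edgeR adjusted p = 0.00267) than with MCF10A EVs, in 6 of 6 libraries each. Of the 3 genes of glycerol 3-phosphate supply, 1 was called in any comparison, Gpd1l, a glycerol 3-phosphate dehydrogenase (0.37 with MCF10A/miR-122 EVs against MCF10A EVs, edgeR adjusted p = 0.00365).

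The other lipid phosphate phosphatases, a family of membrane proteins of which some can also act on phosphatidate, did not follow Lpin1 and Lpin2. All 6 tested had a difference below 0 with MCF10A/miR-122 EVs and with MDA-MB-231 EVs against PBS (medians -0.31 and -0.25). Ppap2a was at -0.0 with MCF10A/miR-122 EVs (edgeR adjusted p = 0.991). In these comparisons 2 and 1 were called lower (33.3% and 16.7%, beside 17.9% and 11.7% of all genes called in either direction). The second call with MCF10A/miR-122 EVs, Ppap2b, was kept in 10 of the 24 fits that left out 1 library, and the MDA-MB-231 EV call, Ppapdc1b, in 13 of 24. Ppapdc1b, also named Plpp5, was at 19.6 ± 2.53 CPM with PBS and 13.5 ± 1.81 CPM with MCF10A/miR-122 EVs (-0.54, SE 0.10, edgeR adjusted p = 0.000904, lower in 6 of 6 libraries).

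Downstream, both tested enzymes that turn diacylglycerol into triacylglycerol were higher with MCF10A/miR-122 EVs than with PBS. Dgat2, the main one for newly made fat in liver, was at 447 ± 27.8 CPM with PBS and 426 ± 41.2, 569 ± 44 and 509 ± 39.4 CPM in the groups given EVs of MCF10A, MCF10A/miR-122 and MDA-MB-231 (SD, n = 6 each). Its difference was 0.35 with MCF10A/miR-122 EVs against PBS (SE 0.07, edgeR adjusted p = 0.0019) and 0.42 against MCF10A EVs (SE 0.07, edgeR adjusted p = 0.000357), in 6 of 6 libraries each. Dgat1 differed by 0.23 from PBS (edgeR adjusted p = 0.0441), a call kept in 15 of the 24 fits that left out 1 library. With MDA-MB-231 EVs against PBS neither passed, Dgat2 at 0.19 (edgeR adjusted p = 0.0926) and Dgat1 at 0.07 (edgeR adjusted p = 0.592).

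On the phospholipid branch, members moved in opposite directions. Chka, choline kinase alpha, was at 55.6 ± 34.6 CPM with PBS, 71.2 ± 25.6 with MCF10A EVs, 23.6 ± 4.21 with MCF10A/miR-122 EVs and 29.5 ± 5.48 with MDA-MB-231 EVs (SD, n = 6 each). It was lower with MCF10A/miR-122 EVs than with PBS (-1.24, edgeR adjusted p = 0.00384) and than with MCF10A EVs (-1.60, edgeR adjusted p = 0.000434). Etnk2, an ethanolamine kinase of liver, was higher in the same comparisons (0.69 and 0.85, edgeR adjusted p = 0.00259 and 0.0004). Pemt, which methylates phosphatidylethanolamine to phosphatidylcholine, rose from 274 ± 11.8 CPM with PBS to 355 ± 40 with MCF10A/miR-122 EVs (0.37, edgeR adjusted p = 0.000347) and 347 ± 16.7 with MDA-MB-231 EVs (0.34, edgeR adjusted p = 0.00135). Among 8 tested diacylglycerol kinases and CDP-diacylglycerol synthases, 1 was called higher with MCF10A/miR-122 EVs and 1 lower with MDA-MB-231 EVs than with PBS. The share called was 12.5% in each comparison, near the 17.9% and 11.7% of all genes. The lower one was Dgke, a diacylglycerol kinase at 1.75 ± 0.294 CPM with PBS and 1.00 ± 0.171 CPM with MDA-MB-231 EVs (-0.81, edgeR adjusted p = 0.00237).

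**Figure D4:**
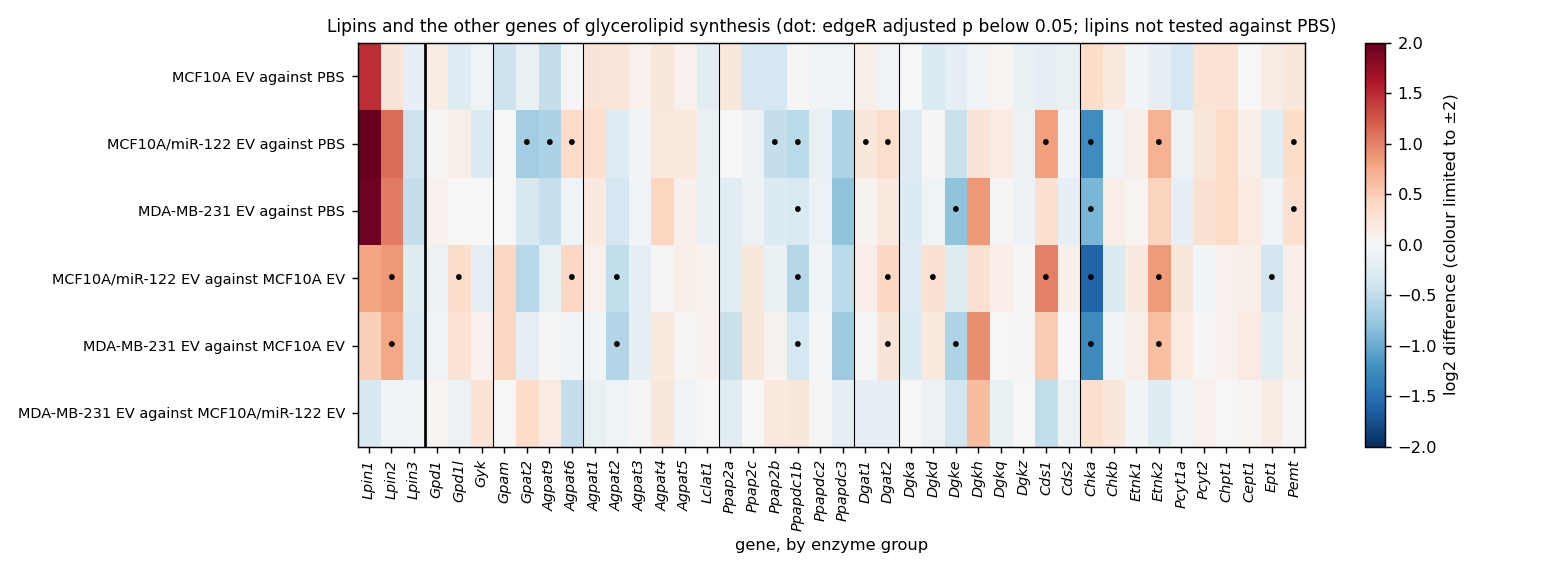
Log2 differences of the lipins and of the tested genes of glycerolipid synthesis (columns, grouped by enzyme role) in the 6 comparisons (rows), with the colour limited to ±2; a dot marks an edgeR adjusted p below 0.05, and lipins were not tested against PBS. Lpin1 is the darkest red column against PBS (1.48, 2.27 and 1.95), while Chka is dark blue in rows that set MCF10A/miR-122 EV or MDA-MB-231 EV against PBS or MCF10A EV.

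Of 9 genes for enzymes and complexes that act on lipin proteins, Kat5 alone was called, in 4 comparisons. The share called was 11.1% in each of them, beside 7.68% to 17.9% of all genes. Kat5 encodes the acetyltransferase Tip60, reported to acetylate lipin 1. It was at 12.2 ± 0.868 CPM with PBS, 11.1 ± 0.557 with MCF10A EVs, 8.5 ± 0.616 with MCF10A/miR-122 EVs and 8.67 ± 0.74 with MDA-MB-231 EVs (SD, n = 6 each). The differences from PBS of the last 2 were -0.52 (edgeR adjusted p = 2.19e-05) and -0.49 (edgeR adjusted p = 6.85e-05), in 6 of 6 libraries each. The phosphatase Ctdnep1, its partner Cnep1r1, and the mTORC1 genes Mtor, Rptor and Mlst8, which set lipin phosphorylation, passed in no comparison.

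Of 12 regulators reported for lipin transcription, 3 were higher with MCF10A/miR-122 EVs than with PBS, and 2 were higher and 1 lower with MDA-MB-231 EVs. The share called was 25% in both comparisons, beside 17.9% and 11.7% of all genes. Ppargc1a was at 8.58 ± 1.84 CPM with PBS, 13.5 ± 4.84 with MCF10A EVs, 23.8 ± 11.3 with MCF10A/miR-122 EVs and 15.7 ± 3.63 with MDA-MB-231 EVs (SD, n = 6 each), the same order of groups as Lpin1 and Lpin2. It rose with MCF10A/miR-122 EVs against PBS (1.48, SE 0.29, edgeR adjusted p = 0.00113, higher in 6 of 6 libraries). With MDA-MB-231 EVs it differed by 0.88 (edgeR adjusted p = 0.0498), a call kept in 7 of the 24 fits that left out 1 library, and with MCF10A EVs by 0.66 (edgeR adjusted p = 0.243). Creb1, the cAMP-responsive transcription factor of fasting, was higher than PBS with MCF10A/miR-122 EVs (0.32, edgeR adjusted p = 0.00782) and MDA-MB-231 EVs (0.36, edgeR adjusted p = 0.00557). With MCF10A EVs it was not called (0.13, edgeR adjusted p = 0.405). Foxo1, which insulin holds out of the nucleus, was higher with MCF10A/miR-122 EVs (0.87, edgeR adjusted p = 0.00677).

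Nr3c1, the glucocorticoid receptor, passed in no comparison, with 75.3 ± 9.48 CPM in PBS and 60.4 ± 8.01, 72.7 ± 8.68 and 69.4 ± 5.44 CPM in the groups given EVs of MCF10A, MCF10A/miR-122 and MDA-MB-231 (SD, n = 6 each). Srebf1, the lipogenic transcription factor, was called in 1 comparison, higher with MCF10A/miR-122 EVs than with MCF10A EVs (0.69, edgeR adjusted p = 0.00816), and had 0.17 against PBS (edgeR adjusted p = 0.532).

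Of the 15 fatty acid oxidation genes reported as co-activated by lipin 1, none was called higher in any of the 6 comparisons by edgeR, also none at an unadjusted p below 0.05 and none by DESeq2. With MCF10A/miR-122 EVs against PBS 2 were lower (13.3%, beside 17.9% of all genes called, list median -0.16). With MDA-MB-231 EVs against PBS 1 was lower (6.67%, beside 11.7%, list median 0.01). Against MCF10A EVs, 4 were lower with MCF10A/miR-122 EVs (26.7%, beside 16.2%) and 1 with MDA-MB-231 EVs (6.67%, beside 7.68%). Whether lipin 1 acted on these genes was not tested. Cpt2, the inner-membrane carnitine palmitoyltransferase, was at 171 ± 15.5 CPM with PBS, 167 ± 16.7 with MCF10A EVs, 128 ± 8.73 with MCF10A/miR-122 EVs and 134 ± 17 with MDA-MB-231 EVs (SD, n = 6 each). Its differences from PBS were -0.42 (edgeR adjusted p = 0.00118) and -0.36 (edgeR adjusted p = 0.00685) in the last 2 groups.

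Genes that glucocorticoids or fasting induce in liver were, against PBS, the list with the largest count of members called higher in each EV group. The lists were chosen with earlier results of these data known. By share, the 2 tested enzymes of triacylglycerol assembly stood above this list with MCF10A/miR-122 EVs (100% against 78.6%). Of 14, 3 were called higher with MCF10A EVs, 11 with MCF10A/miR-122 EVs and 5 with MDA-MB-231 EVs against PBS (medians 0.43, 1.14 and 1.05). Of all genes, 0.37%, 8.35% and 5.33% were called higher in these comparisons. The 3 called with MCF10A EVs were Tsc22d3, Lcn2 and Angptl4. The Angptl4 call with MCF10A EVs was kept in 17 of the 24 fits that left out 1 library. No member was called lower by edgeR, and DESeq2 called 1 lower with MDA-MB-231 EVs. At an unadjusted p below 0.05, edgeR had 2 lower with MCF10A EVs and 2 with MDA-MB-231 EVs. Tsc22d3 was at 30.1 to 98.3 CPM with PBS, 99.2 to 151 with MCF10A EVs, 186 to 266 with MCF10A/miR-122 EVs and 150 to 232 with MDA-MB-231 EVs, so that no EV liver reached down into PBS. Its log2 differences were 1.12 (SE 0.21, edgeR adjusted p = 0.0135), 1.90 (1.44e-06) and 1.76 (5.18e-06). PBS replicates 5 and 6, the PBS livers highest in Lpin1, were also the 2 highest in Tsc22d3, at 98.3 and 76.0 CPM. Replicate 4, low in Lpin1 at 50.1 CPM, was close to them in Tsc22d3, at 67.1 CPM. Over the PBS and MCF10A EV livers the relation of Lpin1 with Tsc22d3 did not pass (r 0.533, permutation adjusted p = 0.188). Tat, the glucocorticoid-induced tyrosine aminotransferase, had 1.56 with MCF10A/miR-122 EVs (edgeR adjusted p = 8.45e-05) and 1.31 with MDA-MB-231 EVs (edgeR adjusted p = 0.000879) against PBS.

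Clock genes, many of which cycle over the day in liver, moved in the same comparisons. Of 15 tested, 3 were lower and none higher with MCF10A EVs against PBS, 5 higher and 2 lower with MCF10A/miR-122 EVs, and 3 higher and 2 lower with MDA-MB-231 EVs. The shares called were 20%, 46.7% and 33.3%, beside 1.07%, 17.9% and 11.7% of all genes. Against MCF10A EVs, 9 were higher and 4 lower with MCF10A/miR-122 EVs (86.7%, beside 16.2%). With MDA-MB-231 EVs 10 were higher and 2 lower (80%, beside 7.68%). Dbp was at 3.57 CPM in PBS replicate 5 and 39.0 to 118 CPM in the other PBS livers. It was at 2.20 to 23.9 CPM with MCF10A EVs and at 71.7 to 149 CPM in the other EV groups, which did not overlap MCF10A EV (3.07 and 2.87, edgeR adjusted p = 0.000358 and 0.00129). Per1, which is clock-controlled and glucocorticoid-induced, was higher than PBS with MCF10A/miR-122 EVs (2.15, edgeR adjusted p = 0.000945) and MDA-MB-231 EVs (1.86, edgeR adjusted p = 0.00461). The labels used here give no hour of collection, and the part of clock phase in the lipin differences was not tested.

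Markers of other cell types were read beside the lipins, because muscle and fat are also known for Lpin1. Of 8 adipocyte markers, 6 had 10 or fewer counts in every library and Lep was at 0 in all. Their sum was 6.01 to 11.6 CPM with PBS and 5.00 to 10.6 CPM in the EV groups. Of 10 skeletal muscle markers, 7 had 10 or fewer counts in every library and Pvalb was at 0. Their sum was 3.77 to 5.70 CPM in PBS and MCF10A EV livers and 1.77 to 2.74 CPM in the other groups. Macrophage markers summed to 250 to 340 CPM with PBS, 225 to 294 with MCF10A EVs, 262 to 629 with MCF10A/miR-122 EVs and 211 to 322 with MDA-MB-231 EVs. Of 10 macrophage markers, 6 were higher with MCF10A/miR-122 EVs than with PBS, where 8.35% of all genes were called higher. None was called higher than PBS in the other EV groups. The part of macrophages in the lipin differences was not tested.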

How the data were processed

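RNA sequencing of 24 mouse liver libraries was analysed from the authors' deposited table of raw read counts per gene symbol. Per the labels' protocols, TRIZOL-extracted total RNA went into stranded mRNA libraries. The submitters' processing notes name bcl2fastq 2.18.0.12, TopHat2 and the build mm9. How reads were counted, with which strand setting and with what rule for repeated sequence, is not given in the sources here. The 27 rows that share 11 symbols (0.0744% of counts) were left out.

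The lipins and the gene lists were chosen with earlier results of these data known. Counts were fitted with edgeR 4.0.16 in R 4.3.3 (TMM scaling, filterByExpr by group, quasi-likelihood F test, two-sided), with all 24 libraries in 1 fit and a mean per group. P-values were adjusted by Benjamini-Hochberg over the 13773 genes tested, at a threshold of 0.05. The common biological coefficient of variation was 16.8%. SEs come from the F statistic and intervals (95%) from its t quantile. CPM uses TMM-scaled library sizes, and log2 CPM for correlations a prior count of 2. Correlations were tested by 100000 permutations within groups. The code was tested on simulated data.

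The named genes are the lipins, in each list and comparison up to 4 members past the threshold by smallest p, Gpam, Dgat1, Dgat2, Ppargc1a, Nr3c1, Srebf1 and Tsc22d3 always, and the 6 genes most like Lpin1 and the 3 most like Lpin2 and Lpin3. Alternatives were DESeq2 1.42.0, other scaling, no filter and a strict filter (1 CPM in 12 libraries), a replicate block, identities from the library names, each library left out in turn, and transcript length. GENCODE M21 and RefSeq, of GRCm38, served for lengths, names and sequences only. The labels do not say that each library is a separate mouse, and p-values measure the spread between libraries. Libraries of a group differed well beyond sampling noise (chi-square per degree of freedom 14.1 to 131 over 60 pairs).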

Additional observations from a re-analysis of the deposited data

Results flagged for a closer look

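Among 44 groups of 6 libraries examined for a single library far from the rest, 4 held one, and chance alone gives about 1 in 20. In PBS, Lpin1 was at 281 CPM in replicate 6, with the next liver at 130 CPM and the lowest at 48.1 CPM. In PBS, Ppargc1a was at 12.2 CPM in replicate 5, with the next at 8.62 CPM. Nr3c1 was at 57.6 CPM in PBS replicate 5, with the next at 75.6 CPM, and at 56.3 CPM in MCF10A/miR-122 EV replicate 5, with the next at 72.9 CPM.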

How the results depend on the processing

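The differences of the 3 lipins from PBS kept their direction in every alternative run, and both Lpin2 calls against MCF10A EVs held in all of them, as did the lack of a call for Lpin1 and Lpin3 between EV groups. With identities from the library names, the differences of MDA-MB-231 EVs from MCF10A/miR-122 EVs reversed by construction, to 0.32 (Lpin1), 0.08 (Lpin2) and 0.06 (Lpin3), and for Lcn2 to 1.49. Genes called were then 1607 and 2463 (list members 18 and 34) for MCF10A/miR-122 EVs and MDA-MB-231 EVs against PBS, and 1058 and 2237 (list members 22 and 38) against MCF10A EVs. Lcn2 had 0.69 with MDA-MB-231 EVs against MCF10A EVs, Agpat6 -0.06 and -0.09 with MCF10A/miR-122 EVs against MCF10A EVs and PBS, and Esrra -0.08 with MCF10A/miR-122 EVs against MCF10A EVs and 0.06 with MDA-MB-231 EVs against PBS. DESeq2 called 414 genes and 10 list members, against 147 and 6, for MCF10A EVs against PBS, and 98 and 5, against 35 and 1, for MDA-MB-231 EVs against MCF10A/miR-122 EVs, and the cause was not tested.

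Leaving out 1 library gave 26 (without PBS replicate 3) to 741 genes (without PBS replicate 5) and 3 to 20 list members for MCF10A EVs against PBS. The count of genes also moved by over 1.5 times without PBS replicates 1, 2 and 4 (71, 75 and 61), MCF10A EV replicates 1, 2, 4 and 6 (88, 97, 64 and 57) and MCF10A/miR-122 EV replicate 5 (251). For MDA-MB-231 EVs against MCF10A/miR-122 EVs it gave 13 to 82 genes (without MCF10A/miR-122 EV replicates 3 and 4) and 1 to 2 list members, and the difference was -0.19 to 0.07 for Lpin2 and -0.15 to 0.01 for Lpin3. Within PBS and MCF10A EV livers r was 0.496 to 0.752 for Lpin1 and Lpin2, -0.167 to 0.525 for Lpin1 and Lpin3, and -0.668 to -0.216 for Lpin2 and Lpin3, which passed without PBS replicate 6 (-0.627, permutation adjusted p = 0.04). Lpin1 and Tsc22d3 had 0.56 to 0.816 in the other livers. Without the 2 farthest libraries, r was 0.286 (Lpin1 and Lpin2, PBS and MCF10A EV livers), and in the other livers 0.701 (Ppargc1a), 0.503 (Tsc22d3) and 0.075 (Dbp, reversed from -0.403) with Lpin1.

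Of 90 calls of named list genes, 63 held without any 1 library, and with identities of the library names 24 were lost and 6 reversed. Deviations of same-numbered libraries of different groups had a median correlation of 0.02 over 36 pairs, 13 over 0.1. Those of other-numbered libraries had -0.0383 over 180 pairs, 57 over 0.1. Whether the numbers pair livers was not settled by this check, and the main fit did not pair them. With the replicate number as a block, Lpin1 was 1.61, 2.41 and 2.14 above PBS on the log2 scale, Lpin2 passed again (0.87 and 0.80 against MCF10A EVs), and 165 genes were called for MCF10A EVs against PBS. Depth limits Lpin3 most, with 69 to 145 counts per library.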
